A study of Drosophila melanogaster with 2 samples.

Results

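Of the 5723 reproducible binding summits of the nuclear receptor Hr78 in fly embryos, 1631 (28.5%, 95% exact interval 27.3 to 29.7) lay at single promoters. A summit is the position deposited for a peak within its region, and a region can hold several. It was taken when it lay within 500 bp of the start of a protein-coding transcript. It was left out when it lay within 500 bp of both starts of a head-to-head pair, in which a minus-strand start lies below a plus-strand start and at most 1000 bp from it. That step set 317 summits aside as divergent promoters, and the remaining 3775 summits were farther than 500 bp from every protein-coding start. The 1631 summits fell in 1451 distinct regions and were nearest to the starts of 1243 genes. Of these genes 928 had 1 summit, 261 had 2, 37 had 3, 15 had 4 and 2 had 5. The rule leaves out summits and not genes, so genes of head-to-head pairs remain among them. Below, single-promoter genes are instead those in no head-to-head pair.

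The samples were 2 biological replicates, numbered 1 and 3, of whole Drosophila melanogaster embryos of mixed sex aged 8 to 16 h. Both were from the transgenic strain Hr78-GFP, which stably makes Hr78 with eGFP at the C terminus, and the precipitating antibody was against GFP. The 2 replicates share 1 donor line and 1 condition, so there was no untagged or untreated group to compare with, and the mixture of tissues in whole embryos cannot be separated. Read numbers were not given, so depth is unknown, and all intervals cover the counting of summits or genes alone.

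Nuclear receptors are transcription factors with a zinc-finger domain that reads short DNA hexamers, alone or as repeats whose spacing differs between receptors. Hr78 is the fly relative of the vertebrate testicular orphan receptors, which bind direct repeats of such hexamers, and fly larvae without it have defects of the tracheal system. Promoters of Drosophila genes carry distinct sets of sequence elements. TATA boxes, initiators and GAGA motifs are common at developmentally regulated genes, while elements such as the DREF site mark genes used in most cells.

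The stretches below show the hexamer AGGTCA at the single-promoter summits of highest signal that hold it within 50 bp. Each reads 5′ to 3′ along the strand of its gene, with release 6 coordinates, and capitals mark the hexamer nearest the summit, which appears as TGACCT where it faces against the gene. Sites inside a UTR have shorter flanks. Summits on one chromosome arm are not printed, and dikar fills the place of Hmgs.
Syx17 at chr3L:4403348-4403413, plus strand: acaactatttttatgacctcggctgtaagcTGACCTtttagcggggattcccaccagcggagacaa
CG5445 at chrX:17302581-17302602, plus strand: gaggtcacAGGTCAcgccagcg
Mondo at chr2L:21309778-21309799, minus strand: tgagccagAGGTCAaaagtgca
CG3386 at chr3L:682575-682640, minus strand: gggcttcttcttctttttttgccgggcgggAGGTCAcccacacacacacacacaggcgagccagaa
CG3104 at chr2L:2855501-2855566, minus strand: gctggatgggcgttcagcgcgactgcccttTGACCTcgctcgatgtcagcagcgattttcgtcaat
Pdi at chr3L:15142354-15142419, minus strand: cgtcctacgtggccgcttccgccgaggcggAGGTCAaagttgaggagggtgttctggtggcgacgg
CG7966 at chr3R:13051552-13051617, minus strand: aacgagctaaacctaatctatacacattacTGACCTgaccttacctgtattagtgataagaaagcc
dikar at chr3L:6742299-6742364, minus strand: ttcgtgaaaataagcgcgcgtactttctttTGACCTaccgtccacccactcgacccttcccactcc
The sites faced along the gene at CG5445, Mondo, CG3386 and Pdi and against it at the others. At Pdi the site lay in coding sequence, 1 bp from the summit and after the start of the gene, and at CG7966 it lay at the summit. The stretches at Syx17 and CG5445 also hold a further copy in lower case that reaches beyond the 50 bp limit, and at CG7966 a further copy, within the limit, overlaps the capitals by 1 base. At CG5445 that copy is separated from the capitals by 1 base, the arrangement described next.

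A direct repeat with a spacer of 1 base, named DR1, is the arrangement bound by several receptors of this family. It was searched on both strands as any of the hexamers AGGTCA and AGTTCA, or GGGTCA and likewise GGTTCA, followed by any base and again by any of these 4 forms. Of the 7 single-promoter summits with a DR1 within 50 bp, 6 are shown, with the whole repeat in capitals.
Asator at chr4:488881-488909, minus strand: ctttctggTGACCTCTGACCCtgactgtg
CG34347 at chr3R:31311361-31311389, plus strand: gcaaactcTGACCTCTGACCCcggacaat
Rab14 at chr2L:14357170-14357198, plus strand: gtttgattGGGTCAGAGTTCAtttctgcc
Mzt1 at chr3L:2389057-2389129, plus strand: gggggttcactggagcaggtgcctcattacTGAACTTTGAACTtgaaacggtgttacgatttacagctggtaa
CG15020 at chr3L:4422163-4422191, plus strand: ccgagctgTGAACTGTGACCCgtgattcg
Hsp60A at chrX:11109874-11109902, plus strand: aagattttTGACCTTTGACCCgctggaag
The repeat lay 0 to 37 bp from these 6 summits. Those at Mzt1 and Rab14 lay before the nearest start, and the other 4 lay after it.

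A DR1 was scarcer at single promoters than at summits away from starts. It was found at 7 of 1631 single-promoter summits (0.429%, 0.173 to 0.882) and at 71 of 3775 summits away from starts (1.88%, 1.47 to 2.37; Fisher's exact test, two-sided, adjusted p = 1.82e-05). Divergent promoters had 0 of 317, with a 95% exact interval up to 1.16%, and the difference from single promoters did not pass (adjusted p = 0.607, Fisher's exact test). In windows centred 500 bp from the same single-promoter summits 1 DR1 was found, and the excess at the summits did not pass the exact McNemar test (p = 0.0703). It passed when the window reached 100 bp to each side, with 15 summits against 1 (exact McNemar test, p = 5.19e-04), in the 891 summits of higher signal (7 against 0, p = 0.0156) and in the peaks of replicate 1 alone (10 summits, p = 0.0117), but not in those of replicate 3 alone (6 summits, p = 0.125). Direct repeats with a spacer of 2 bases were about as frequent in both places, with 6 single-promoter summits (0.368%) and 13 others (0.344%). Repeats with no spacer were found at 5 (0.307%) and 13 (0.344%). These p-values treat summits as independent, although all came from the same 2 libraries and some share a region.

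The 7 genes with a DR1 ranged widely in signal. The highest was SCAP, which carries the lipid regulator SREBP out of the endoplasmic reticulum, whose replicate signals were 4243 in replicate 1 and 3199 in replicate 3. Asator, a gene of the tau-tubulin kinase family, had 1016 and 931, and CG34347 had 743 and 651. Rab14, a small GTPase of endosomal traffic, had 580 and 543, and Mzt1, a partner of the microtubule-nucleating gamma-tubulin complex, had 552 and 479. The lowest were CG15020, with 288 and 242, and Hsp60A, the mitochondrial chaperonin, with 247 and 200. Each of the 7 had a peak in both replicates, as had 1605 of all 1631 single-promoter summits. Replicate 1 was the higher at every one, but the scale differs between lists. Over the matched summits the median ratio of replicate 1 to replicate 3 was 1.24.

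AGGTCA by itself was also less frequent here than away from starts, and more frequent than at divergent promoters. It was within 50 bp of 139 single-promoter summits (8.52%, 7.21 to 9.98), against 2.45% (1.76 to 3.32) of windows of the same width centred 500 bp away (exact McNemar test, two-sided, p = 1.12e-14). The share was 11.2% (10.2 to 12.2) away from starts and 4.10% (2.20 to 6.91) at divergent promoters (Fisher's exact test, adjusted p = 0.00580 for each difference). The difference from divergent promoters did not pass with a start-site limit of 250 bp (adjusted p = 0.188, Fisher's exact test) or in narrower windows (adjusted p = 0.377). Single-promoter summits of higher signal held it more often, with 11.2% of the 815 of higher and 5.88% of the 816 of lower signal (Fisher's exact test, p = 1.30e-04). Of the 143 sites, 73 faced along the gene (42.6 to 59.5%, exact binomial test, p = 0.867), and 76 lay before the start.

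**Figure D1:**
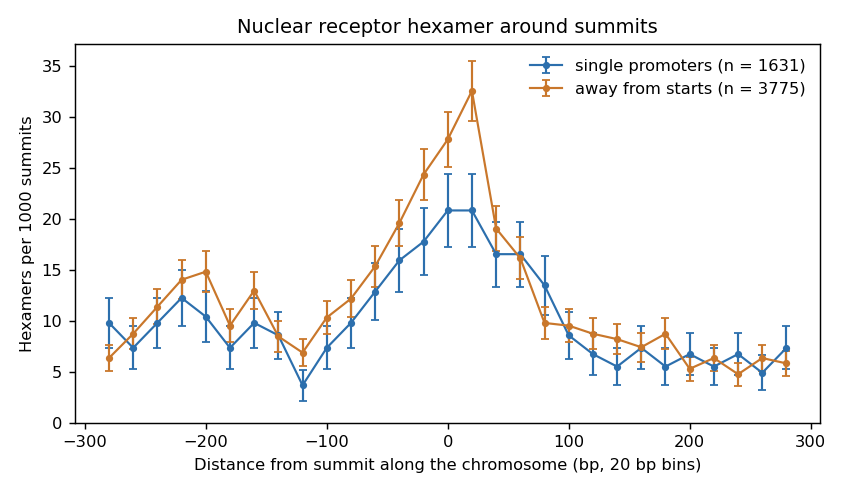
Number of AGGTCA hexamers on either strand per 1000 summits in bins of 20 bp, for summits at single promoters and away from starts. Bars are the square root of the count in each bin, and both curves are highest near the summit. The curve away from starts is the higher in bins centred from -60 to 40 bp and the lower at 60 and 80 bp.

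The 4 forms of the hexamer occurred in similar proportions within 50 bp of summits in both places. These counts include background sites, and proportions in the windows 500 bp away are not given. At single promoters AGGTCA made 28.0% of 511 hexamers, AGTTCA 30.1%, GGGTCA 25.8% and GGTTCA 16.0%. Away from starts the shares of 1582 hexamers were 28.6%, 29.1%, 28.5% and 13.7%. Any of the 4 forms was within 50 bp of 434 single-promoter summits (26.6%), against 12.4% of the windows 500 bp away (exact McNemar test over 21 motifs, adjusted p = 1.26e-23).

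Summits at single promoters lay mostly before the start of the gene. At the 1128 summits whose gene had no start of another protein-coding gene within 1000 bp, 774 of the 1127 that were off the start base lay upstream of it (68.7%, 65.9 to 71.4; exact binomial test, two-sided, p = 9.54e-37). The share was 69.3% for plus-strand and 68.1% for minus-strand genes. The fullest intervals were 300 to 200 bp before the start, with 17.9% of these summits, and 200 to 100 bp before it, with 17.7%. The median of all 1631 summits was at -117 bp. Peaks called on each replicate alone gave upstream shares of 69.2% in replicate 1 and 67.6% in replicate 3.

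**Figure D2:**
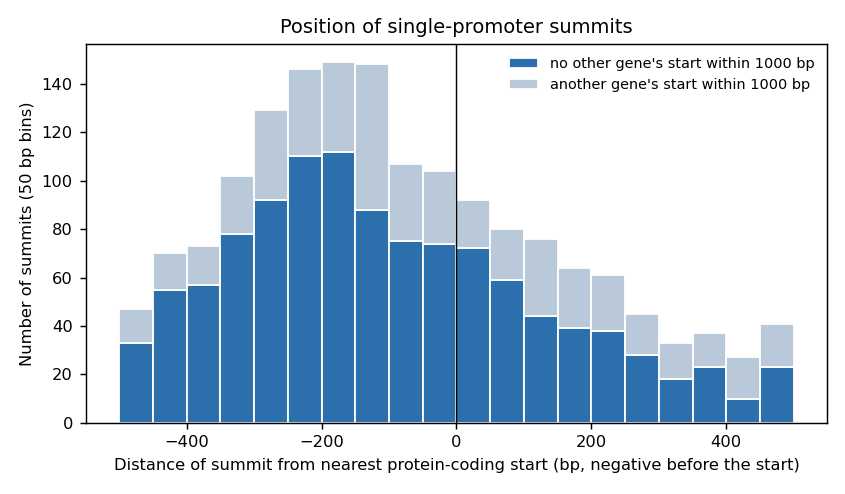
Number of single-promoter summits in bins of 50 bp by distance from the nearest protein-coding start, negative before the start. Colours separate genes with and without another gene's start within 1000 bp, and the bars are tallest between -300 and -100 bp.

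The share of summits with the hexamer was not highest where summits were most numerous, given without a test. The hexamer was found at 6.40% (3.90 to 9.81) of summits 200 to 100 bp before the start, where summits were most numerous. Farther before the start it was at 5.71% (2.77 to 10.3) from 400 to 300 bp and 9.40% (4.79 to 16.2) from 500 to 400 bp. Its share was 13.2% (7.41 to 21.2) at 200 to 300 bp after the start and 19.1% (10.6 to 30.5) at 400 to 500 bp after it, where 68 summits lay. By annotation, 36.1% of the summits were in introns, 30.6% before the start and between genes, 24.0% in 5' UTRs and 6.19% before the start within another gene. Another 49 (3.00%) were in coding sequence, of which 12 (24.5%) held the hexamer.

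Syx17, rux and shi had the summits of highest signal. Syx17, a syntaxin of autophagosome fusion, had 11892 in replicate 1 and 10564 in replicate 3 and was first in both. For rux, an inhibitor of mitotic cyclin and its kinase, the signals were 11287 and 6822. For shi, the dynamin that pinches off endocytic vesicles, they were 9642 and 5852. These ranked 1, 2 and 3 in each replicate list. AGGTCA was present at Syx17 and absent from the windows at rux and shi.

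Among the other 17 genes of highest signal were several of metabolism. Mondo, a sugar-responsive transcription factor, had a summit 246 bp after its start with 2453 in replicate 1 and 1813 in replicate 3. Its known target cbt, a zinc-finger factor, had 2623 and 2463 at 347 bp before the start. Hmgs, the HMG-CoA synthase of the mevalonate pathway, had 2182 and 1525 at 387 bp after the start, with AGGTCA within 50 bp. Hacd1, a dehydratase of fatty acid elongation, had 1960 and 1843 at 82 bp after the start. Ppcs, an enzyme of coenzyme A synthesis, had 2510 and 1526 within 20 bp of its start. Cpr, the electron donor of cytochrome P450 enzymes, had 2703 and 1912.

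The same group held genes of protein folding, redox balance and transcription. Pdi, the protein disulfide isomerase of the endoplasmic reticulum, had 2403 and 1319, the widest gap in rank among these genes (27 and 61). Trx2, a thioredoxin, had 2096 and 1592. The splicing regulator gene ps had 2214 and 2343, and gem, a transcription factor of the grainyhead superfamily, had 2212 and 2339. Rab19, a small GTPase, had 3924 and 3163. SCAP was also among the 20. The others were CG5445, CG33523, CG8321, CG3386 and CG3104, whose signals ran from 2112 to 2316 in replicate 1 and from 1714 to 2245 in replicate 3.

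Hr78 itself had a pair of summits in the same region, each nearest to a different annotated start. Signal was greater at the lower coordinate, as in nearly all the close pairs described below, and separate binding was not tested. One lay 32 bp before a start, with 988 in replicate 1 and 532 in replicate 3, and the other 8 bp before another start, with 544 and 381. Reads from the tagged Hr78 transgene could map there too, and their part was not tested. Neither window held the hexamer. At the limit of 500 bp, the last summits inside were at CG17896 and CG42571, both 500 bp before a start, with optimal-list signals of 662 and 626. The first outside were at ph-p and ITP, 501 bp before a start, with 1572 and 1152.

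Signals in the replicates followed each other. Both were matched within 200 bp for 1605 of the 1631 summits. In each replicate 34 summits shared their matched peak with another single-promoter summit, so those values are not separate. Spearman's rho across summits was 0.755 and Pearson's r of log10 signal 0.804. The summits share the same 2 libraries, so these describe the lists and are not tests. The optimal list was also selected for reproducibility between these replicates. High agreement, and the high overlap given below, therefore follow in part from that selection. The ratio of replicate 1 to replicate 3 had a median of 1.24, and its middle 90% spanned 0.745 to 2.50. The 5723 highest peaks of both replicates overlapped 85.0% of the summits' regions, against 80.8% at divergent promoters (Fisher's exact test, adjusted p = 0.0635) and 82.4% away from starts (adjusted p = 0.0390). With 50% reciprocal overlap the first difference passed (67.1% against 59.0%, adjusted p = 0.0131, Fisher's exact test) and the second did not (67.1% against 66.9%, adjusted p = 0.925). Among peaks of higher signal the first also passed (99.6% against 96.5%, adjusted p = 0.00404, Fisher's exact test).

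**Figure D3:**
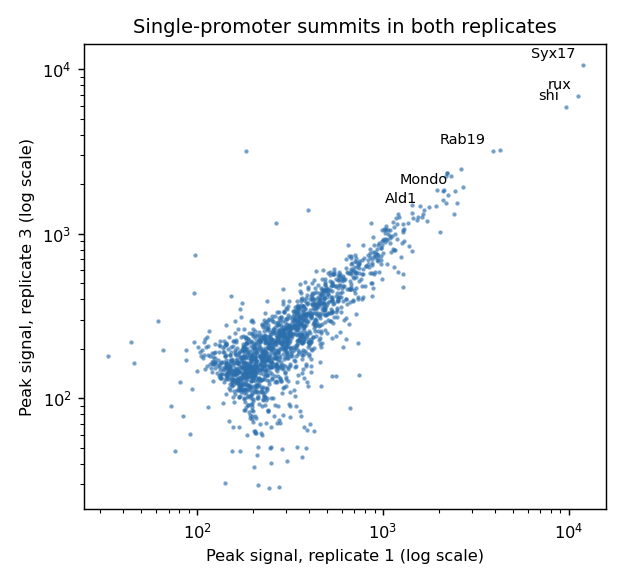
Peak signal of each single-promoter summit in replicate 1 against replicate 3, both on log axes, for the 1605 summits matched within 200 bp. Syx17, rux and shi stand at the upper end in both replicates, and most points scatter along 1 diagonal.

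Single promoters had somewhat higher signal than bound places away from starts. The optimal-list signal had a median of 472 at single promoters, 464 at divergent promoters and 428 away from starts. It was above the median of the whole list for 54.6% of single-promoter summits and 47.6% of those away from starts (Fisher's exact test, adjusted p = 4.23e-06). Divergent promoters had 54.6% (adjusted p = 1, Fisher's exact test). With a start-site limit of 250 bp the first comparison was 52.1% against 49.1% and did not pass (adjusted p = 0.101, Fisher's exact test). Down the list of 30000 peaks called on both replicates together, single-promoter summits made 28.8% of the first 5000 and 13.6% of the last 5000. The hexamer was at 8.96% and 2.21% of those summits, the latter close to the 2.45% of windows 500 bp away.

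Neighbouring summits 150 to 250 bp apart differed by side of the chromosome. In 238 of 239 such pairs at single promoters signal was greater on the side of lower coordinates, although 113 of the pairs were at plus-strand and 126 at minus-strand genes. The hexamer was at 37 of the lower and 15 of the higher summits. Which part of the upper summits reflects separate binding was not tested.

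Promoters with a summit differed from other single promoters in how often several short motifs occurred. Each motif was counted on either strand anywhere in the window, so its position relative to the start was not considered. Windows from 200 bp before to 100 bp after the start were compared between 982 bound genes and 6220 genes with no summit of the pooled list, both outside head-to-head pairs. Fisher's exact test with Benjamini-Hochberg adjustment called 7 of 21 motifs (33.3%). The GAGA motif, searched as GAGAGAG on both strands, was found in 18.8% (16.4 to 21.4) of bound and 4.37% of unbound promoters (adjusted p = 2.01e-48, Fisher's exact test). It is the site of the GAGA factor Trl, a protein known for opening chromatin at promoters. Among genes with 1 annotated start the shares were 15.7% and 3.93% (adjusted p = 9.78e-19, Fisher's exact test).

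The GAGA motif is shown at the bound single promoters of highest signal that hold it outside a UTR, chosen after their values were seen, with the motif in capitals along the strand of the gene.
CG3164 at chr2L:129398-129446, minus strand: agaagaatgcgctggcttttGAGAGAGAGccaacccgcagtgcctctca
msi at chr3R:25515994-25516040, plus strand: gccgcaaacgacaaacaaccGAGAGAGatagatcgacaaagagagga
svp at chr3R:12281035-12281081, plus strand: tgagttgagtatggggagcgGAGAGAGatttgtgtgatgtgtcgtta
The promoter of svp, an orphan nuclear receptor itself, had the motif 49 bp before the start and 37 bp from the summit. At msi, an RNA-binding protein gene of the nervous system, it lay 98 bp before the start, and at CG3164 173 bp before it and 247 bp from the summit.

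Other motifs differed in both directions. TATAAA was found in 28.6% of bound and 46.3% of unbound promoters (adjusted p = 7.06e-25, Fisher's exact test). CCAAT, the box of the factor NF-Y, was found in 42.2% and 48.4% (adjusted p = 9.30e-04, Fisher's exact test). The initiator, as TCAGTC or TCAGTT, was found in 46.5% and 38.8% (adjusted p = 2.65e-05), CGTG of the downstream promoter element in 79.4% and 65.1% (adjusted p = 3.89e-19), and CAGCTG in 19.8% and 14.4% (adjusted p = 1.01e-04, all by Fisher's exact test). The 4 forms of the nuclear receptor hexamer together were in 38.1% and 33.5% (adjusted p = 0.0158, Fisher's exact test), and this difference did not pass among genes with 1 annotated start (37.8% and 34.0%, adjusted p = 0.356). AGGTCA alone was in 7.13% and 5.48% (adjusted p = 0.119, Fisher's exact test). Bound promoters were richer in G and C, with a median of 45.5% against 38.5%, and the part of base composition in these differences was not tested. The windows of bound genes were set at the start nearest a summit and those of unbound genes at the first start.

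**Figure D4:**
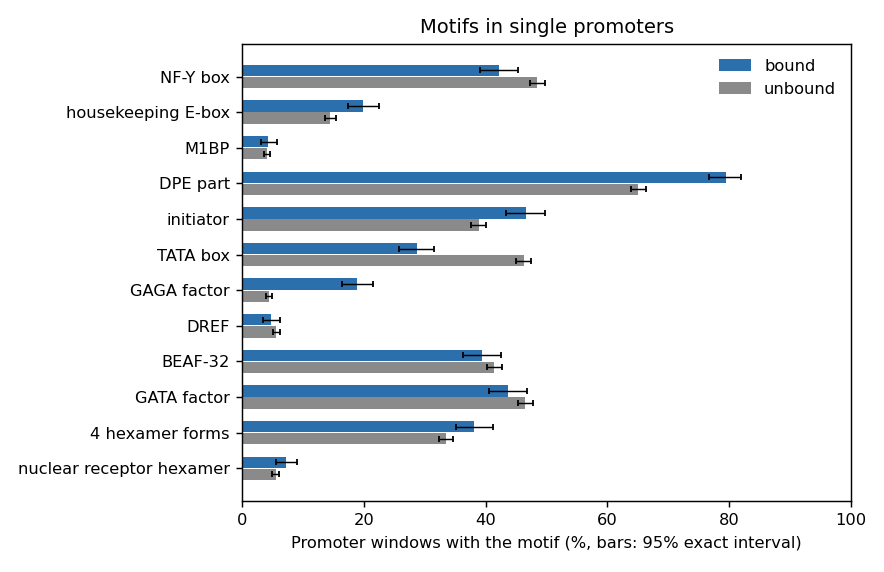
Share of promoter windows that hold each motif in 982 bound and 6220 unbound single-promoter genes, with 95% exact intervals. The bars for the GAGA factor differ most in ratio, 18.8% against 4.37%, and the TATA box is more frequent in unbound promoters.

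Around the summits themselves the picture was narrower. Against windows 500 bp away, 4 of 21 motifs passed the exact McNemar test (19%): AGGTCA, the 4 forms of the hexamer together, GATA and the BEAF-32 insulator site. GATA, counted where adenine or thymine stood before it and a purine after it, was at 23.9% of summits and 17.7% of the other windows (adjusted p = 1.18e-04, exact McNemar test), and CGATA of BEAF-32 at 15.8% and 12.2% (adjusted p = 0.0183). GAGAGAG was at 3.49% and 2.64% (adjusted p = 0.430, exact McNemar test). Against divergent promoters, Fisher's exact test called 3 of 21 (14.3%): TATAAA at 12.9% and 24.0% (adjusted p = 3.01e-05), CGTG at 38.9% and 27.1% (adjusted p = 6.32e-04), and AGGTCA (adjusted p = 0.0406 over the 21 motifs). GAGAGAG, at 3.49% and 0.946%, did not pass (adjusted p = 0.0641, Fisher's exact test). The count against divergent promoters was 6 of 21 in the peaks of either replicate alone.

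Binding was spread unevenly over kinds of genes. Of 8893 genes outside head-to-head pairs 982 (11.0%) had a summit at a start, against 836 of 5052 genes in such pairs (16.5%; Fisher's exact test, p = 5.29e-20). A summit between paired starts can count for both genes. With each pair counted once the second share was 20.8%, and among genes with 1 annotated start the shares were 6.55% and 11.4%. By number of starts of a single-promoter gene, the share was 6.55% with 1 start, 19.1% with 2, 35.6% with 3 or 4 and 57.6% with 5 to 16, given without a test. Bound single-promoter genes were also longer, with a median of 5830 bp against 1686 bp for the 6220 with no summit of the pooled list. Of 369 bound genes with starts more than 1000 bp apart, 172 had summits at a later start alone, 138 at the first alone and 59 at both. On the X chromosome 11.1% of single-promoter genes were bound and on the autosomes 11.0% (Fisher's exact test, p = 0.926).

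Genes of sugar sensing, nuclear receptors and glycolysis had the highest shares with a single-promoter summit among 34 gene lists. Over all 13945 protein-coding genes the share was 9.21%, and over the 1181 genes of the lists it was 12.8%. The lists differ in the number of starts and length of their genes, and their counts are given without a test. They were chosen with earlier results of these data known, so their order depends in part on that choice. Of 9 transcription factors that answer to sugar, 6 had a summit (66.7%, 29.9 to 92.5): cbt, Mondo, Atf3, CrebB, sug and foxo. The highest after cbt and Mondo was Atf3, a stress-responsive factor, with 647 in replicate 1 and 573 in replicate 3.

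**Figure D5:**
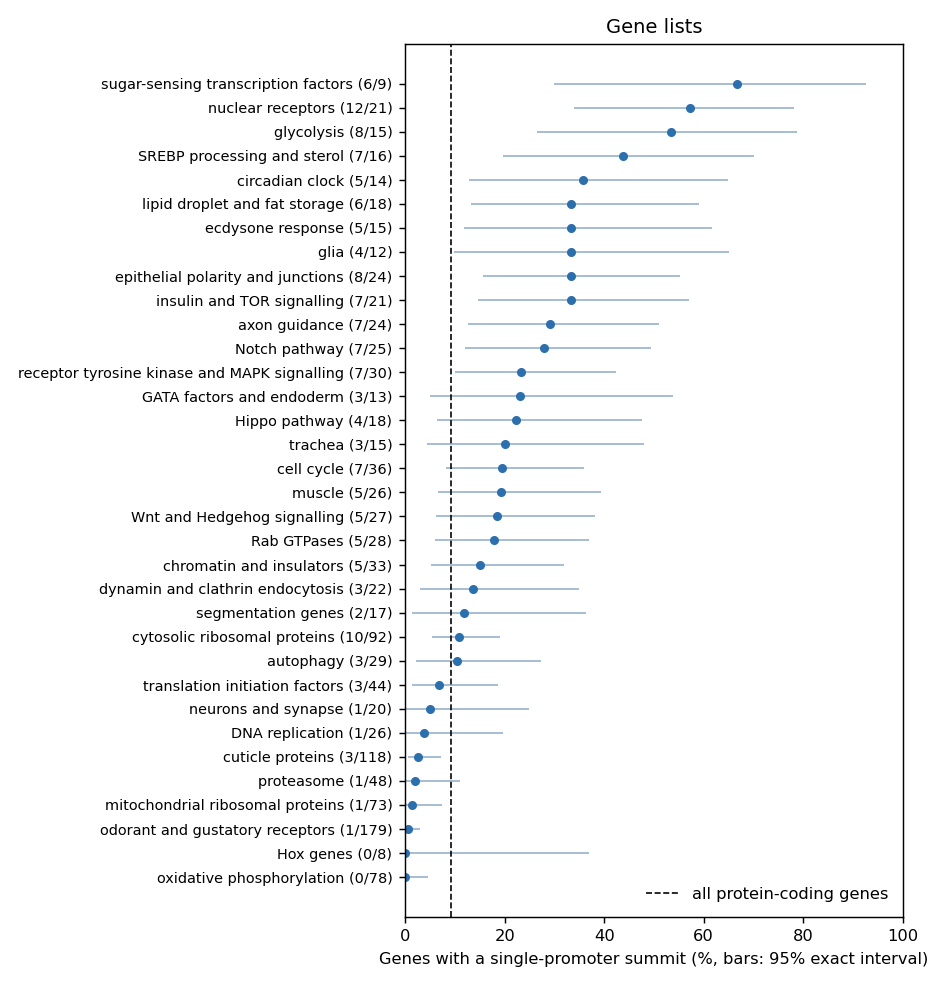
Share of the genes of each list that had a single-promoter summit within 500 bp of a start, with 95% exact intervals and counts beside the names. The dashed line marks the 9.21% of all protein-coding genes, and the lists run from oxidative phosphorylation (0 of 78) to sugar-sensing transcription factors (6 of 9).

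Nuclear receptor genes themselves were bound in 12 of 21 cases (57.1%, 34.0 to 78.2). Hr39, a relative of the steroidogenic factors, had the highest signal, 1935 in replicate 1 and 1473 in replicate 3, at 329 bp after its start. The orphan receptor svp had 1061 and 993. Next after Hr78 came Eip75B, a heme-binding receptor of the ecdysone response, with 665 and 462, and Hnf4, a receptor of lipid use and mitochondrial function, had 597 and 334. Of the 15 genes of the ecdysone response 5 were bound, among them tai, a coactivator of the ecdysone receptor, at 359 and 449, and the transcriptional repressor vri at 361 and 398.

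Glycolytic genes were bound in 8 of 15 cases (53.3%, 26.6 to 78.7), with 2 more bound at divergent promoters alone. PCB, with 1437 in replicate 1 and 787 in replicate 3, is not among the 15 because its list symbol had no match. The aldolase gene Ald1 had 1666 in replicate 1 and 1395 in replicate 3, Gapdh2 had 1028 and 1004, and the enolase gene Eno had 785 and 613. Hex-A, Ldh, Tpi, Pgk and Pfk followed. In 7 of these 8 genes the highest summit lay before the start, from 74 bp at Ald1 to 327 bp at Pgk, and at Pfk it lay 259 bp after it. Over all single-promoter summits off the start base, 1075 of 1630 (66.0%) lay before the start. The median of the highest signal over the bound genes of this list was 1219, against 521 over all bound genes, both in the optimal list.

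Lipid genes were bound at several steps. Of 16 genes of SREBP processing and sterol handling 7 were bound, led by SCAP, by Acsl, an acyl-CoA synthetase, with 547 and 611, and by AcCoAS, an acetyl-CoA synthetase, with 265 and 176. The fatty acid synthesis genes ACC, FASN1 and Desat1 were also bound, with lower signals. Of 18 genes of fat storage 6 were bound, among them the phosphatidate phosphatase Lpin with 480 and 438 and the acyltransferase Agpat3 with 531 and 409. In the insulin and TOR pathway 7 of 21 were bound, with the kinase sgg (610 and 482) and the AMP-kinase subunit SNF4Agamma (735 and 400) the highest. Clock genes were bound in 5 of 14 cases, including Pdp1, vri, Clk and cry.

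Lists of developmental and cell cycle genes varied. Shares ran from 0% for Hox genes and 5% for neurons and synapse to 33.3% for epithelial polarity and for glia. Notch pathway genes were bound in 7 of 25 cases, with E(spl)m7-HLH, a repressor induced by Notch, the highest at 669 and 493. For receptor tyrosine kinase signalling the count was 7 of 30, with Pvr at 636 and 305 and aos, the secreted inhibitor of Egfr, at 615 and 300. Genes of epithelial polarity were bound in 8 of 24 cases, led by crb, an organiser of the apical membrane, with 1043 and 1059. Axon guidance genes had 7 of 24, with comm, which clears the Robo receptor from growth cones, at 471 and 531. Of 15 tracheal genes 3 were bound, led by trh, the regulator of tracheal identity, with 373 and 300. Cell cycle genes had 7 of 36, with rux and then Cdk4 (675 and 591).

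Several large groups had few or no summits at single promoters. None of 78 genes of oxidative phosphorylation had one, with a 95% exact interval up to 4.62%, and 3 were bound at divergent promoters alone. Mitochondrial ribosomal protein genes had 1 of 73, mRpL41, with 9 bound at divergent promoters alone. In these lists 42 and 58 genes were in head-to-head pairs. The list of odorant and gustatory receptor genes, which holds ionotropic receptors too, had 1 of 179, the ionotropic receptor gene Ir94h. Cuticle protein genes had 3 of 118 and proteasome genes 1 of 48, Rpn10. Of 8 Hox genes none was bound, with a 95% exact interval up to 36.9%. Cytosolic ribosomal protein genes had 10 of 92 (10.9%), near the share of all genes, with 15 more bound at divergent promoters alone and 55 in head-to-head pairs, and their signals were low, from 132 to 286 in replicate 1.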

How the data were processed

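Chromatin from the 2 replicates was immunoprecipitated and sequenced after sonication to 200 to 800 bp, per the labels. Peaks had been called on each replicate and on both together against a control, and an optimal list was thresholded on the irreproducible discovery rate, per the text files deposited by the authors. Which caller, aligner and threshold were used is not given in the sources used here. Peak signal was deposited by the authors as the caller's value against the control. Its scale differs between lists. The −log10 q-value, as deposited, had a single value in the optimal list and was not used. Summit offsets were deposited in bp.

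Coordinates were dm6, per the labels. Starts came from Ensembl release 115 (BDGP 6.54) and sequences from the RefSeq genome of release 6, in which 30540 of 30593 annotated start codons read ATG. Replicate values are those of the nearest replicate summit within 200 bp. Some neighbouring summits therefore share a replicate peak and its signal. Motifs were counted on either strand within 50 bp of the summit and of a point 500 bp away at the higher coordinate. The threshold was 0.05 with Benjamini-Hochberg adjustment in families. Python 3.11.15, numpy 2.4.6, scipy 1.17.1, pandas 2.3.3 and matplotlib 3.10.9 were used, and the scripts were tested on simulated data.

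The members and lists were chosen with earlier results of these data known. Named were the 20 summits of highest signal found in both replicates (1 per gene), up to 3 bound genes per list, up to 8 with each motif, 2 on each side of the 500 bp limit, and Hr78. Other genes named within lists, and lists picked for comment, were chosen after their values were seen. No match was found for 13 list symbols, and 23 matched an older name. Among the unmatched were Pcb of the glycolysis list and d of the Hippo list. The genes annotated as PCB and dachs had single-promoter summits but were not counted in those lists.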

Additional observations from a re-analysis of the deposited data

How the results depend on the processing

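Of 155 alternative values, 123 kept their direction and side of the threshold. No paired analysis was possible because both replicates form 1 group. Without replicate 1 or 3, using the other's 5723 highest peaks, single promoters made 28.1% to 29.8% of summits. DR1 shares were 0.352% to 0.622%, motifs called against divergent promoters numbered 6 and 6, AGGTCA hexamers faced along the gene in 47.1% to 54.7%, and X genes were bound in 10.4% to 11.6% of cases. Replicate overlap has no value without a replicate. In the 2861 optimal peaks of higher signal, single promoters made 31.1% of summits, DR1 reached 0.786% against 0 in flanks (exact McNemar test, p = 0.0156), signal was above the median for 53.1% (59.0% at divergent promoters), replicate overlap was 99.6% (96.5% at divergent promoters and 99.6% away from starts), and 6.86% of list genes were bound. With a start limit of 250 bp the values were 20.3% of summits, AGGTCA hexamers 7.07%, orientation 49.4%, signal 52.1% (58.8% at divergent promoters), overlap 83.6%, X genes 6.79% (autosomes 7.95%) and list genes 10.4%. In windows within 25 bp of the summit AGGTCA hexamers were at 4.72% and 48.7% faced along the gene. In windows within 100 bp of it DR1 was at 0.920%. With the flank placed downstream by gene, 8 motifs passed. Overlap was 82.7% without the higher-coordinate summit of close pairs (adjusted p = 0.0474 against divergent promoters, Fisher's exact test), 67.1% with 50% reciprocal overlap and 73.1% with replicate summits within 100 bp. X genes were bound in 10.5% of cases with 1 summit per region, 5.43% with 1 annotated start and 35.2% over the pooled list (autosomes 29.1%; Fisher's exact test, p = 6.91e-06). The causes were not tested. The strand and single-start alternatives were added after seeing the data.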
